A study of Mus musculus with 11 samples.

Results

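The opioid peptides and receptors of mPFC CRF1+ neurons were described from 7 genes out of the 53465 counted. The genes are the precursors Pdyn, Penk and Pnoc and the receptors Oprm1, Oprd1, Oprk1 and Oprl1. They were picked by symbol, with earlier results of these data known. CRF1 is the receptor, encoded by Crhr1, for the stress peptide corticotropin-releasing factor, and the mPFC is the medial prefrontal cortex. GFP-positive cells of the mPFC of male CRF1:GFP mice, a reporter line in which GFP marks CRF1-expressing cells, were collected by fluorescence-activated cell sorting, and RNA was sequenced from 6 naïve and 5 withdrawn mice. All mice were at least 10 weeks old and carried the reporter.

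Withdrawn mice inhaled ethanol vapor for 5 to 6 weeks, 4 days each week, with 16 hours of vapor and 8 hours of air per day, and cells were taken after 5 to 8 days of abstinence. They were injected with ethanol (1.75 g/kg) and pyrazole (68.1 mg/kg), an inhibitor of alcohol dehydrogenase. Naïve mice also received pyrazole and breathed air. Each library held the sorted cells of 1 mouse, so n counts mice. The treatment label puts 5 mice in the ethanol group, but another label of withdrawn mice 3, 4 and 5 reads control, and the design text gives 5 control and 6 ethanol animals. Fold changes of the 7 genes are given with and without these 3 mice, as are some of the other results.

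Opioid peptides are cut from larger precursor proteins in secretory vesicles. Penk yields enkephalins, Pdyn dynorphins and neoendorphins, and Pnoc nociceptin. Their receptors, mu (Oprm1), delta (Oprd1), kappa (Oprk1) and nociceptin (Oprl1), couple to inhibitory G proteins, which lower cyclic AMP, open inwardly rectifying potassium channels and close presynaptic calcium channels. In the cortex Penk, Pdyn and Pnoc mRNA are known from sets of GABAergic interneurons, and the kappa receptor and dynorphin are widely studied in alcohol dependence.

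The peptides differ in the first residue and in the number of copies that a precursor carries, which is why stretches of the 3 precursors are shown. Capitals mark the 12 bases that code for tyrosine, glycine, glycine and phenylalanine, the shared start of enkephalins and dynorphins, or in Pnoc for phenylalanine, glycine, glycine and phenylalanine, the start of nociceptin. On each side 9 bases of coding sequence follow in lower case, 5′ to 3′ on the minus strand of GRCm38, read from GENCODE M21 transcripts. The coding sequence of Penk held 7 in-frame opioid starts, that of Pdyn 3, and that of Pnoc none but 1 nociceptin start. The copies below are the first, the sixth and the last of Penk at chr4:4134328-4134357, chr4:4133935-4133964 and chr4:4133842-4133871, the first and the last of Pdyn at chr2:129688232-129688261 and chr2:129688067-129688096, and that of Pnoc at chr14:65404872-65404901.
Penk copy 1, Met-enkephalin: gccaagaagTACGGAGGCTTCatgaaacgg
Penk copy 6, Leu-enkephalin: cagaagaggTATGGGGGCTTCctgaagcgc
Penk copy 7, Met-enkephalin with an extension: gagaaaagaTACGGGGGCTTTatgcggttc
Pdyn copy 1, neoendorphin: gccaaacgcTATGGCGGCTTTttgcgcaaa
Pdyn copy 3, dynorphin B: cagaagcgcTATGGTGGTTTCctgcggcgt
Pnoc, nociceptin: cagaaaaggTTTGGGGGCTTCaccggggcc
The codon after the capitals is atg (methionine) in copies 1 and 7 of Penk, and ctg or ttg (leucine) in copy 6 and in copies 1 and 3 of Pdyn. In front of the capitals each stretch carries a pair of codons for lysine or arginine, the residues at which the convertases cut. The libraries measured the whole precursor mRNA and therefore cannot tell the peptides of 1 precursor apart.

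The libraries had between 7351567 and 22244869 counts on genes, with 15585 to 31830 genes detected. Values below are CPM, counts scaled to a common library total, on library sizes scaled with edgeR's TMM method. A count of 3 corresponds to between 0.140 and 0.369 CPM in 1 library, a floor that leaves out all error but that of counting, because amplified cDNA was read. Crhr1 was present in every mouse, at 92.7 ± 21.5 CPM (SD, n = 6) in naïve and 89.3 ± 33.6 CPM (n = 5) in withdrawn mice. The glutamatergic marker Slc17a7 stood at 1435 ± 346 and 1362 ± 447 CPM, and the GABAergic marker Gad2 at 39.9 ± 21.5 and 57.5 ± 47.3 CPM. The reads that fell outside annotated exons ranged from 5.77% in naïve mouse 5 to 48.1% in withdrawn mouse 4.

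All 7 genes passed the filter on low counts, and none met both criteria for a call, an adjusted p no higher than 0.05 and a log2 fold change beyond 0.6, by edgeR's quasi-likelihood test or by DESeq2. Over all genes tested, edgeR called 0.00585% of 17093 (1 gene) and DESeq2 1.66% of 21849 (362 genes). Penk alone of the 7 had an unadjusted p under 0.05, a share to be read against 7.22% of all genes in either direction and 5% in the upward direction. The log2 fold change of withdrawn over naïve mice was above 0 in 4 and below 0 in 3, with a median of 0.03, where 51.8% of all genes were above 0 with a median of 0.02. In none of the 7 were the naïve and withdrawn ranges apart, which was the case for 0.948% of all genes.

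**Figure D1:**
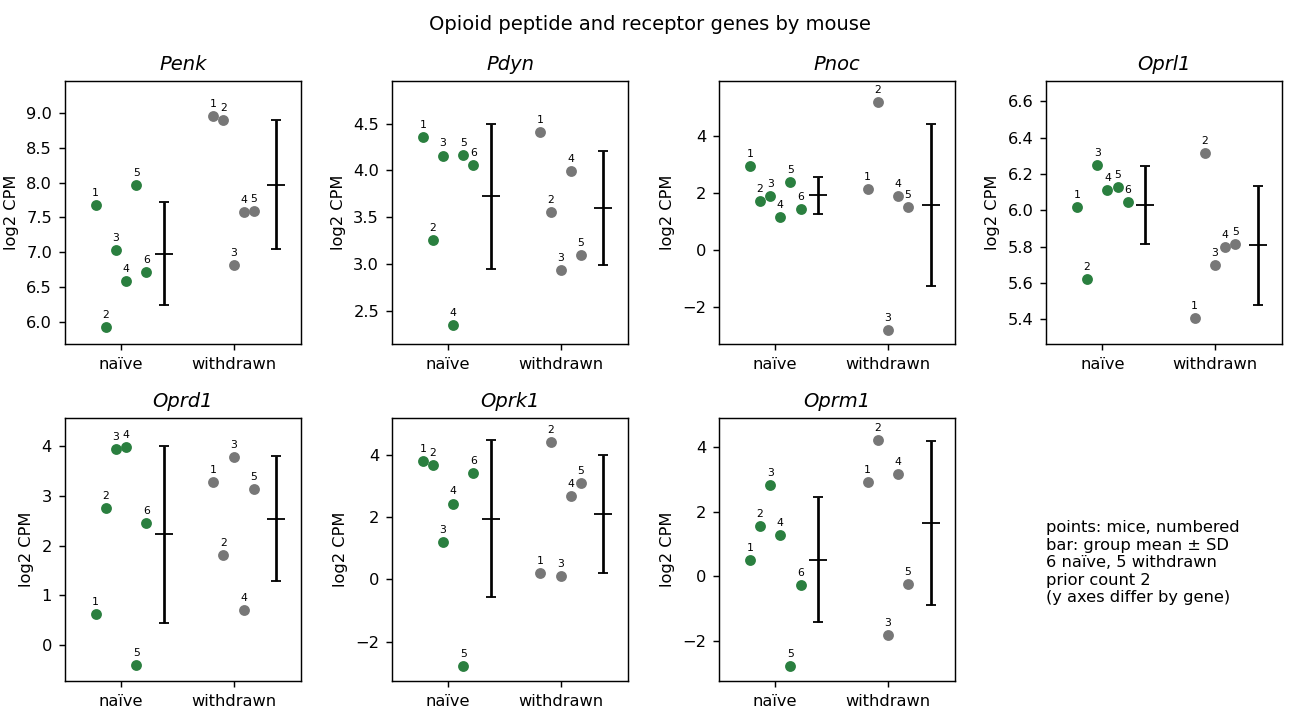
Log2 CPM (prior count 2) of the 7 opioid genes in each of 6 naïve and 5 withdrawn mice, numbered, with the group mean ± SD as a bar; the y axes differ by gene. Penk is highest in withdrawn mice 1 and 2, while the other 3 withdrawn mice lie among the naïve mice, and the groups overlap for all 7 genes.

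Penk, on chromosome 4 (4133531 to 4138819, minus strand, GRCm38), was the most abundant of the 7. Its level in naïve mice ran from 60.6 to 249 CPM with a median of 117, and withdrawn mice 1 to 5 had 499, 476, 113, 191 and 193 CPM. Withdrawn mice 1 and 2 were above every naïve mouse, and withdrawn mice 3, 4 and 5 were inside the naïve range. The means were 141 ± 71.5 (n = 6) and 294 ± 179 CPM (n = 5), a fold of 2.09 with a 95% interval from 1.12 to 3.90. On the log2 scale the difference was 1.07 (SE 0.42, unadjusted p = 0.0232), and it did not pass the threshold across all genes (Benjamini-Hochberg adjusted p = 0.553 in edgeR and 0.315 in DESeq2).

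The mice that set the Penk difference are also those on which the labels do not conflict. Withdrawn mice 1 and 2, with ethanol in every label, had 476 and 499 CPM, and the 3 mice with conflicting labels had 113 to 193 CPM. Without those 3 the log2 fold change was 1.74 (SE 0.41, adjusted p = 0.640 by edgeR, 0.0654 by DESeq2). With those 3 as the only withdrawn mice it was 0.22 (SE 0.39, adjusted p = 1.00). Leaving out each mouse in turn gave 0.76 without withdrawn mouse 1 to 1.30 without naïve mouse 5, and the unadjusted p was under 0.05 in 9 of 11 such fits, the exceptions being those without withdrawn mouse 1 (0.0924) and without withdrawn mouse 2 (0.0843).

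**Figure D2:**
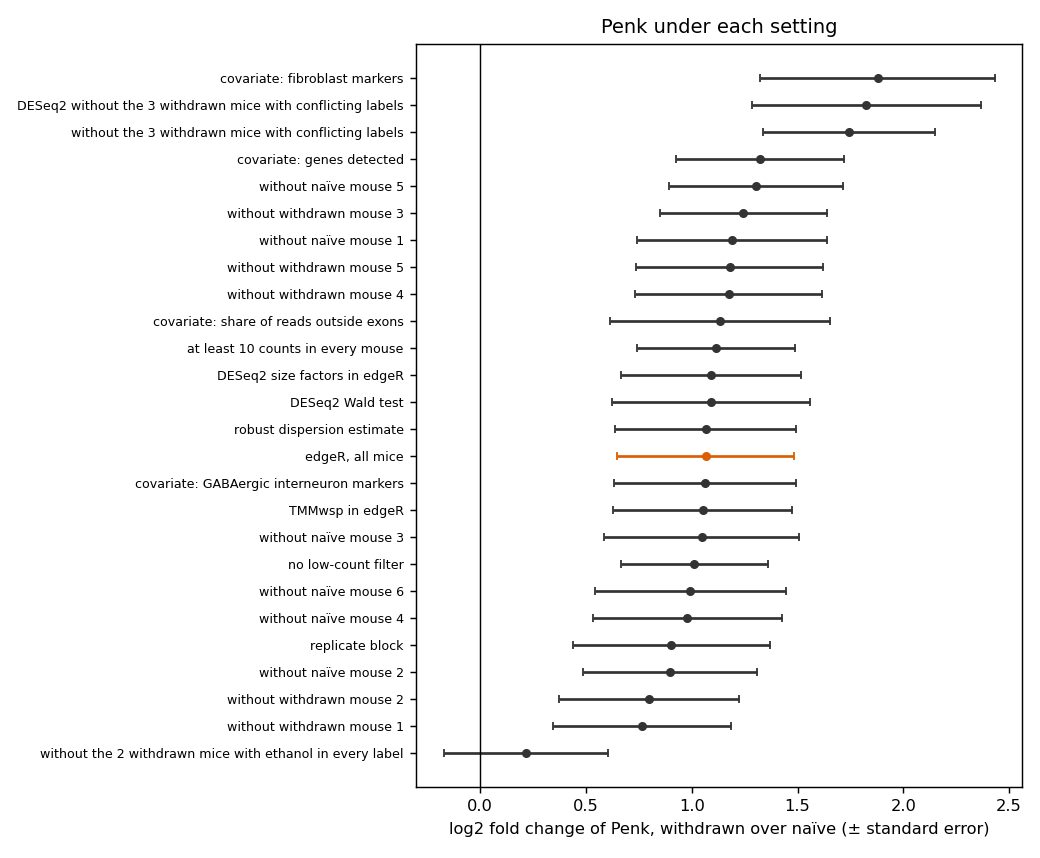
Log2 fold change of Penk, withdrawn over naïve, with its standard error as a bar, under each setting that gave a standard error; the fit of all mice by edgeR is in orange. Voom with sample weights (1.17) gave none and is not shown. All values are above 0, from 0.22 without the 2 withdrawn mice that carry ethanol in every label to 1.88 with fibroblast markers as a covariate.

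Markers of other cell types were read beside Penk, since in RNA of many sorted cells a change in the share of a cell type cannot be told apart from a change in RNA per cell. The summed CPM of 10 GABAergic interneuron markers ranged from 213 to 1320 in naïve and from 132 to 809 in withdrawn mice, with 6 of the 10 above and 4 below 0 in log2 fold change. Members of this list differed widely. Sst, the somatostatin gene, had 247 ± 293 CPM in naïve and 6.53 ± 14.6 CPM in withdrawn mice (log2 −5.33, SE 2.07, edgeR adjusted p = 0.545), while Vip (1.03, SE 0.68), Adarb2 (1.01, SE 0.62) and Gad1 (0.82, SE 0.63) were above 0. With the mean log2 CPM of the list as a covariate, which averages over these, Penk stood at 1.06 (SE 0.43). The summed CPM of 8 fibroblast markers ranged from 0.0677 to 73.3 in naïve mice and was 1353, 22.4, 686, 956 and 236 in withdrawn mice 1 to 5. All 7 of the fibroblast markers tested had a log2 fold change above 0, 6 with an unadjusted p under 0.05, and each of the 8, Dcn and Col1a1 among them, was at 0 in at least 1 mouse. Withdrawn mouse 1 had the highest fibroblast sum and the highest Penk level of all mice. Withdrawn mouse 2 had a fibroblast sum within the naïve range and the second-highest Penk level. With the mean log2 CPM of the fibroblast markers as a covariate Penk stood at 1.88 (SE 0.55, adjusted p = 0.936 by edgeR). Withdrawn mice 3, 4 and 5, whose labels conflict, had fibroblast sums above every naïve mouse. Of the mice with ethanol in every label, mouse 1 was above and mouse 2 inside the naïve range. All withdrawn mice but mouse 2 were thus above every naïve mouse, so these markers nearly follow the groups as used here. Fits with this covariate, for Penk or the other opioid genes, therefore cannot separate the share of fibroblasts from withdrawal. The summed CPM of 5 microglia markers was 0 to 6.47 in naïve and 6.87 to 17.5 in withdrawn mice, with no overlap. Groups were apart for 0.948% of all single genes tested. In withdrawn mice Tmem119 made up most of the sum (0.543 ± 0.822 CPM in naïve and 7.39 ± 5.11 CPM in withdrawn mice). Mean CPM was higher in withdrawn mice also for C1qa (0.068 and 0.950) and Cx3cr1 (0.347 and 0.406). It was lower for P2ry12 (0.234 and 0.0246) and Csf1r (0.977 and 0.832). Each of the 5 was at 0 in some mouse. Of 5 astrocyte markers tested, 1 was above 0, Gja1, a connexin gene (15.3 ± 12.0 and 187 ± 122 CPM, log2 3.61, SE 0.96, edgeR adjusted p = 0.250). The summed level of the 6 listed was 73.1 to 265 CPM in naïve and 60.9 to 442 CPM in withdrawn mice. Gja1 alone had a higher mean CPM in withdrawn than in naïve mice, and all other astrocyte markers listed had a lower one. The part of fibroblasts, microglia and astrocytes in the Penk values was not tested.

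Penk shares 233 exonic bases with A830012C17Rik on the opposite strand, which had at most 7 counts in any mouse, against at least 1104 for Penk. The 3 genes whose log2 CPM followed Penk most closely over the 11 mice were Gab3, a docking adaptor of growth factor and cytokine signalling (Pearson r = 0.95, Spearman rho = 0.94), Ubash3b, a tyrosine phosphatase (r = 0.89, rho = 0.72), and 3110082I17Rik (r = 0.89, rho = 0.89). These are the highest of 12226 correlations, over mice that share their library depth and RNA quality across genes. Without naïve mouse 2 and withdrawn mouse 1, the 2 farthest from the median of Penk, r was 0.93, 0.78 and 0.90.

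Pdyn, on chromosome 2 (129686565 to 129699844, minus strand), was spread alike in both groups. Naïve mice ran from 4.95 to 20.3 CPM with a median of 17.1, and withdrawn mice 1 to 5 had 21.1, 11.6, 7.52, 15.7 and 8.42 CPM. Withdrawn mouse 1 was the highest of all, the other 4 withdrawn mice lay below the naïve median, and the ranges overlapped almost wholly. The means were 14.4 ± 5.94 and 12.9 ± 5.61 CPM, a log2 difference of −0.16 (SE 0.44, edgeR adjusted p = 0.969) with a 95% interval from −1.11 to 0.78, or from 0.465-fold to 1.71-fold, which leaves room for a sizeable difference either way. Without the 3 mice with conflicting labels the difference was 0.14.

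Pnoc, on chromosome 14 (65400673 to 65425472, minus strand), was low except in 1 mouse. Naïve mice had 2.10 to 7.63 CPM (36 to 75 counts) with a median of 3.37. Withdrawn mice 1 to 5 had 4.32, 36.3, 0, 3.57 and 2.69 CPM, from 60, 324, 0, 29 and 38 counts. Withdrawn mouse 2 thus had 77.4% of the summed Pnoc CPM of its group, and the 0 of withdrawn mouse 3 allows a level of up to 0.140 CPM. The log2 difference of 1.22 (SE 1.05, 95% interval −1.04 to 3.47, edgeR adjusted p = 0.877) became −0.63 without withdrawn mouse 2. Without the 3 mice with conflicting labels, which leaves mouse 2 as 1 of 2 withdrawn mice, it was 2.25 by edgeR (SE 0.81, unadjusted p = 0.0169, adjusted p = 0.761) and 2.39 by DESeq2 (adjusted p = 0.128), and with fibroblast markers as a covariate it was 2.41 (SE 1.13). In the GABAergic marker list the same mice were at the ends of the withdrawn group, with summed levels of 809 CPM in mouse 2 and 132 CPM in mouse 3. Naïve mice kept to that order only in part. Naïve mouse 1 had the highest marker sum and the highest naïve Pnoc level (1320 and 7.63 CPM). Naïve mouse 2 had a sum of 994 with 3.18 CPM of Pnoc. Naïve mouse 5, with the lowest naïve sum (213 CPM), had 5.08 CPM of Pnoc. The part of these cells in the Pnoc values was not tested.

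Set per kilobase of exon, so that genes can be ranked, Penk was first in 11 of 11 mice and Oprl1 second in 11 of 11. In naïve mice the mean levels were 86.1 ± 43.8 CPM per kb for Penk, 17.5 ± 2.41 for Oprl1, 5.00 ± 2.06 for Pdyn, 1.87 ± 0.94 for Pnoc, 1.86 ± 1.64 for Oprd1, 0.801 ± 0.621 for Oprk1 and 0.292 ± 0.313 for Oprm1. The ranges of Penk and Oprl1 were apart in naïve mice, as were those of Oprl1 and Pdyn. Pdyn was above Pnoc in 6 of 6 naïve and 4 of 5 withdrawn mice, with overlapping ranges. From Pnoc downwards the neighbours overlapped, and Pnoc and Oprd1 in particular had nearly the same mean. The length of the longest coding transcript, in place of all exons, left Penk first and Oprl1 second in every mouse and moved the low levels by more than the spread between mice, to 2.90 for Pnoc, 1.57 for Oprk1 and 1.38 CPM per kb for Oprm1.

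Of the summed precursor mRNA per kb, Penk made up 92.1% ± 2.66 in naïve mice (88.7% to 95.6%) and 95.5% ± 1.62 in withdrawn mice (93.3% to 97.0%). Pdyn made up 5.78% ± 2.18 and 2.81% ± 1.21. Of the summed receptor mRNA per kb, Oprl1 made up 85.9% ± 7.78 and 81.1% ± 4.03. Both precursor shares and the receptor share had overlapping ranges and were not tested. In withdrawn mice 1, 2 and 5 Pdyn made up 2.32%, 1.29% and 2.39%, below the lowest naïve share of 2.79%, and the labels of mouse 5 conflict. Withdrawn mice 3 and 4 had 3.63% and 4.39%. A Pdyn share also falls where Penk is high, and withdrawn mouse 1 had the highest Pdyn level of all mice (21.1 CPM). In the nociceptin system the receptor gene was the second most abundant of the 7 per kb, and the precursor gene had a mean of 1.87 CPM per kb beside its 17.5.

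**Figure D3:**
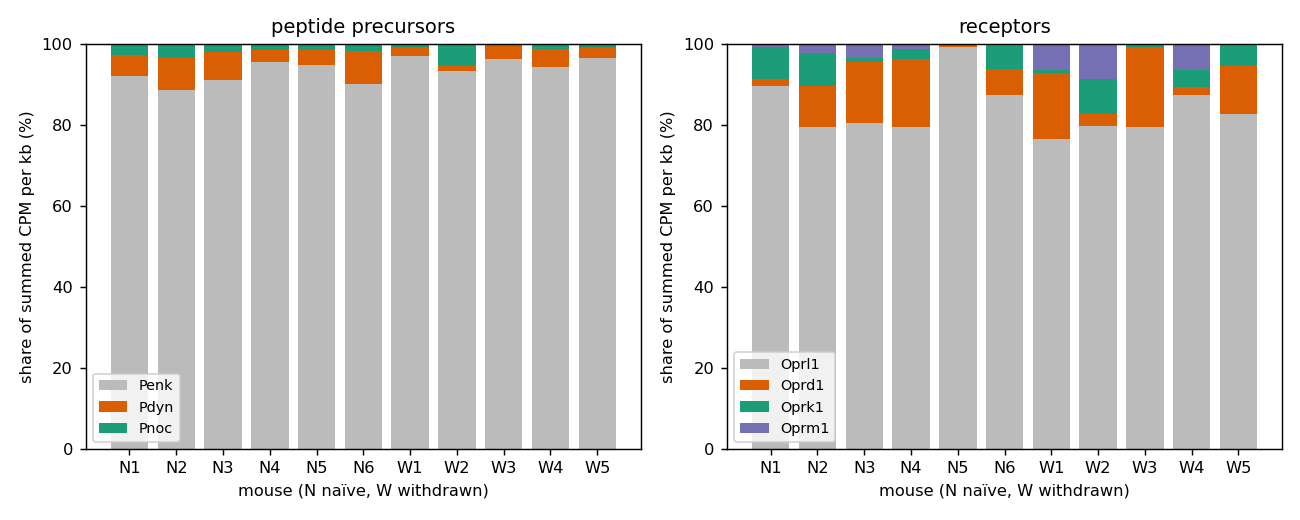
Share (%) of each gene in the summed CPM per kb of the 3 precursors (left) and of the 4 receptors (right), with 1 bar for each naïve (N1 to N6) and withdrawn (W1 to W5) mouse. Penk is the largest precursor share and Oprl1 the largest receptor share in all 11 mice, while Oprd1, Oprk1 and Oprm1 divide the rest differently from mouse to mouse.

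Oprl1, the nociceptin receptor gene on chromosome 2 (181715016 to 181720985, plus strand), was the steadiest of the 7. Naïve mice ran from 49.1 to 75.9 CPM with a median of 67.4, and withdrawn mice 1 to 5 had 42.3, 79.6, 51.7, 55.4 and 56.0 CPM. Withdrawn mouse 1 was the lowest and withdrawn mouse 2 the highest of all 11, and 4 of 5 withdrawn mice were below the naïve median. The means were 65.8 ± 9.05 and 57.0 ± 13.8 CPM, a fold of 0.867 with a 95% interval from 0.652 to 1.15 (edgeR adjusted p = 0.892), so that larger differences than these lay outside the interval. Its biological coefficient of variation in the fit was 25.2%, at percentile 10.5 of all genes, where the median gene had 52.9%. The log2 fold change was −0.21 (SE 0.19) with all mice and −0.17 (SE 0.29) when the 3 mice with conflicting labels were left out.

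Oprd1, the delta receptor gene on chromosome 4 (132110726 to 132144486, minus strand), varied 25.7-fold among naïve mice. They ran from 0.610 to 15.7 CPM with a median of 5.98, and withdrawn mice 1 to 5 had 9.65, 3.36, 13.7, 1.48 and 8.63 CPM. Every withdrawn mouse lay inside the naïve range. The log2 difference was −0.02 (SE 0.80, edgeR adjusted p = 0.997) with a 95% interval from −1.73 to 1.70, or from 0.301-fold to 3.24-fold. It was −0.23 (SE 1.14) without the 3 mice with conflicting labels and −1.45 (SE 0.89) with fibroblast markers as a covariate.

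Oprk1, the kappa receptor gene on chromosome 1 (5588466 to 5606131, plus strand), had 0 counts in naïve mouse 5, which allows up to 0.203 CPM. The other naïve mice had up to 13.7 CPM, the median of the 6 was 7.84, and withdrawn mice 1 to 5 had 1.01, 20.9, 0.934, 6.27 and 8.35 CPM. Of the withdrawn mice, mouse 2 alone was above the naïve range. The log2 difference was 0.03 (SE 1.05, 95% interval −2.23 to 2.28, edgeR adjusted p = 0.997), and it changed sign in 5 of 11 fits that left out a mouse. Without the 3 mice with conflicting labels it was 0.49 (SE 1.44).

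Oprm1, the mu receptor gene on chromosome 10 (6758506 to 7038198, plus strand), was the lowest of the 7 per kb in naïve mice. Naïve mice had 0 to 7.03 CPM with a median of 1.78, and withdrawn mice 1 to 5 had 7.49, 18.5, 0.140, 8.85 and 0.707 CPM, from 104, 165, 3, 72 and 10 counts. Withdrawn mice 1, 2 and 4 were above every naïve mouse, and withdrawn mice 3 and 5 were among the lowest. The log2 difference of 1.60 (SE 1.17, 95% interval −0.91 to 4.11, edgeR adjusted p = 0.852) did not pass the test. It was 2.42 (SE 1.26, adjusted p = 0.789) without the 3 mice with conflicting labels.

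The Oprm1 level went with the share of reads outside annotated exons, a value measured per library. Over the 11 mice Pearson r was 0.90 and Spearman rho 0.95, r was 0.98 in the 6 naïve and 0.86 in the 5 withdrawn mice, and without withdrawn mice 2 and 4, the 2 farthest from the median share, it was 0.96. Among all genes tested this r lay at percentile 99.5, where the median gene had 0.10, and the other 6 opioid genes had −0.0025 to 0.49. Within groups Oprd1 went in opposite directions, with r of 0.83 in naïve and −0.95 in withdrawn mice, which the pooled −0.0025 does not show, and Penk had −0.64 in naïve and 0.41 in withdrawn mice. Withdrawn mice 1, 2 and 4 had 26.2%, 39.6% and 48.1% of reads outside exons and withdrawn mice 3 and 5 had 13.3% and 16.0%. A fit with that share as a covariate, a choice made once these values were known, gave Oprm1 a log2 fold change of −0.0026 (SE 0.37). With r this high the covariate takes up most of the Oprm1 spread whatever its source, and the cause was not tested. Oprm1 has 8037 exonic bases, of which 96 overlap Ipcef1 on the opposite strand (223 to 1639 counts per mouse).

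**Figure D4:**
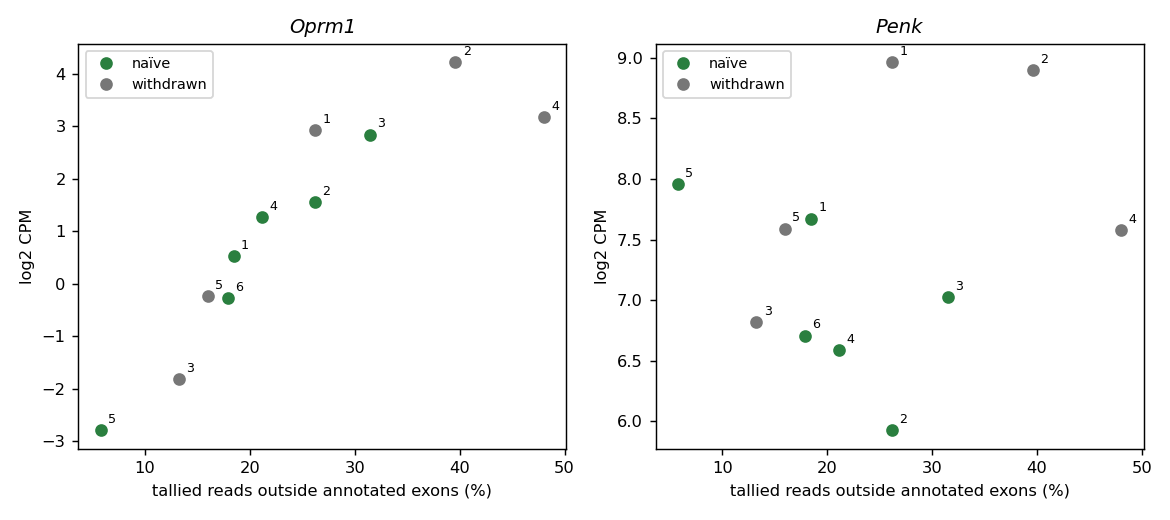
Log2 CPM of Oprm1 (left) and Penk (right) against the percentage of tallied reads that fell outside annotated exons, 1 numbered point for each of 6 naïve and 5 withdrawn mice. Oprm1 climbs with the share in both groups (r = 0.90 over 11 mice), and Penk shows no such order (r = 0.21).

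Of the mu, delta and kappa receptors, which bind enkephalins and dynorphins, Oprd1 had the highest level per kb in 5 of 6 naïve and 3 of 5 withdrawn mice. Oprk1 led in naïve mouse 1 and Oprm1 in withdrawn mice 2 and 4. The leading receptor held from 42.4% of their sum in withdrawn mouse 2 to 100% in naïve mouse 5, where Oprd1 alone was detected, with 9 counts. With the longest coding transcript as the length, Oprd1 led in 2 naïve and 2 withdrawn mice, Oprk1 in 3 naïve mice, and Oprm1 in 1 naïve and 3 withdrawn mice. The order of the 3 receptors thus differed from mouse to mouse and with the length chosen.

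**Figure D5:**
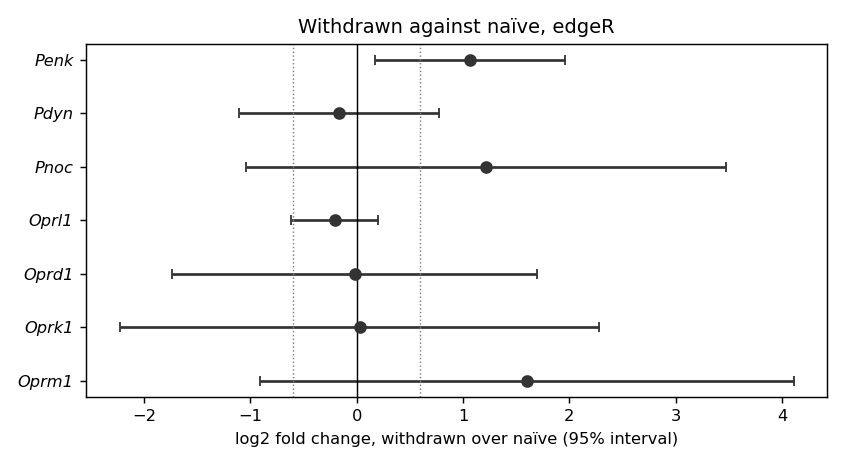
Log2 fold change of each opioid gene, withdrawn over naïve, by edgeR, with its 95% interval as a bar; dotted lines mark ± 0.6. Penk alone has an interval above 0 (0.17 to 1.96, without adjustment for multiple tests), and that of Oprl1 (−0.62 to 0.21) is the narrowest.

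The other genes of the opioid pathway were read from 7 lists of 66 genes, of which 65 were tested. None was called by edgeR, 8 (12.3%) had an unadjusted p under 0.05, beside 7.22% of all genes, and DESeq2 called 1 (1.52%), beside 1.66% of all genes. The log2 fold change was above 0 in 23 and below 0 in 42, with a median of −0.12 against 0.02 for all genes. Without the 3 mice with conflicting labels 22 were above and 44 below 0, with a median of −0.17, and of the genes named below Ctsl (−0.01), Mme (−0.20), Grk5 (−1.01) and Pomc (0.46) had the opposite sign.

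Genes that cut and store the precursors were mostly below 0, in 9 of 11, with a median of −0.20 and none called. Scg2, secretogranin II of the dense-core vesicle, was the lowest at −0.74 (SE 0.23, edgeR adjusted p = 0.336), with 306 to 628 CPM in naïve mice (the middle values being 419 and 436) and 320, 165, 238, 205 and 377 CPM in withdrawn mice 1 to 5. Withdrawn mice 2, 3 and 4 were below every naïve mouse. Ctsl, cathepsin L, which also cleaves proenkephalin, was the highest at 0.43 (SE 0.33). The convertases themselves stood at 0.0060 (SE 0.34) for Pcsk1 and −0.20 (SE 0.18) for Pcsk2. A lean below 0 was not particular to this list, since of 7 glutamatergic neuron markers 1 was above and 6 were below 0, with none called.

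Peptidases that break down opioid peptides leaned the other way with all mice, with 9 of 12 above 0, a median of 0.54 and none called by edgeR. Without the 3 mice with conflicting labels 7 of 12 were above 0, with a median of 0.37. With all mice Anpep, aminopeptidase N, which removes the first tyrosine of enkephalins, was the highest at 4.54 (SE 1.14, edgeR adjusted p = 0.202). It was the gene that DESeq2 called (4.62, adjusted p = 0.000807). It had 0 to 1.15 CPM in naïve mice and 26.1, 0.448, 7.19, 23.0 and 6.08 CPM in withdrawn mice 1 to 5. Withdrawn mice 1, 3, 4 and 5 were above all naïve mice and withdrawn mouse 2 was among them, the same arrangement as that of the summed fibroblast markers above, and the part of those cells in the Anpep values was not tested. Without withdrawn mouse 2 edgeR called Anpep too (adjusted p = 0.0364). Of the withdrawn mice above all naïve mice, mice 3, 4 and 5 carry conflicting labels. Without those 3 mice neither edgeR (log2 fold change 4.60, adjusted p = 0.691) nor DESeq2 called Anpep. Mme, neprilysin, the other main enkephalin-degrading enzyme, stood at 0.67 (SE 1.35) from 0 to 5.31 CPM. Ece1, endothelin-converting enzyme, was the lowest at −0.34 (SE 0.22).

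Signalling genes below the receptors had medians near or under 0. Of the G protein subunits 3 of 9 were above 0 (median −0.15), from Gnai3, an inhibitory alpha subunit, at 0.53 (SE 0.22) to Gnb1, a beta subunit, at −0.58 (SE 0.27). Of the RGS proteins, which shorten G protein signals, 1 of 7 was above 0 (median −0.24), from Rgs14 at 0.15 (SE 0.23) to Rgs9 at −0.81 (SE 0.79). Of the receptor kinases and arrestins, which switch receptors off, 3 of 6 were above 0 (median −0.08), from Grk5 at 0.10 (SE 0.60) to Grk2 at −0.39 (SE 0.24). Of the effectors 5 of 16 tested were above 0 (median −0.10), from the transcription factor Creb1 at 0.29 (SE 0.35) to the adenylyl cyclase Adcy3 at −0.56 (SE 0.44). None of these was called by edgeR or DESeq2. Without the 3 mice with conflicting labels 2 of 9 G protein subunits (median −0.16) and 2 of 7 RGS proteins (median −0.18) were above 0. In that setting 2 of 6 receptor kinases and arrestins (median −0.27) and 6 of 17 effectors (median −0.12) were above 0.

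The remaining list included Pomc, the precursor of beta-endorphin, Ogfr, the opioid growth factor receptor, and its relative Ogfrl1. None was called by edgeR or DESeq2. The log2 fold change was −0.48 (SE 1.15) for Pomc, which had 0 to 6.27 CPM, −0.37 (SE 0.17) for Ogfrl1 and −0.25 (SE 0.24) for Ogfr.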

How the data were processed

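RNA of FACS-sorted mPFC CRF1+ neurons was sequenced in 6 naïve and 5 withdrawn mice, from 160 pg of RNA with 14 and 12 PCR cycles and 75 nt reads. Per the submitters' processing notes and the methods of the study, the authors used cutadapt 1.18 for trimming, STAR 2.5.2a for mapping, HTSeq 0.11.0 for counting and DESeq2 1.20.0 for testing, on GRCm38 with Ensembl release 91. The deposited values are raw counts per gene and mouse. The strand setting is not given in the sources used here, so reads of overlapping antisense genes may not be separated. Rows that name no gene, with 18.9% to 58.0% of tallied reads, were left out of library sizes.

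Symbols and exons were taken from GENCODE M21, which matched 53360 of 53465 identifiers. In R 4.3.3, counts were compared with edgeR 4.0.16 (TMM, filterByExpr with a minimum count of 10 and total of 15, quasi-likelihood test, Benjamini-Hochberg adjustment), with calls made where the adjusted p was no higher than 0.05 and the log2 fold change lay beyond 0.6. The scripts were tested on simulated data, with a pass mark for large changes at less variation between samples than the median gene had here. That check of the code does not tell how small a change could be detected in the opioid genes. DESeq2 1.42.0, limma 3.58.1 (voom), other scalings, filters and lengths, covariates, a replicate block, and fits leaving out each mouse or the mice with conflicting labels were alternatives. The covariate for reads outside exons, the fit without the 2 mice with ethanol in every label, and, without the 3 conflicting mice, DESeq2 and the values of pathway genes were added after seeing the data. None of the 55 pairs of libraries agreed within sampling noise (chi-square per degree of freedom at least 25.6).

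The opioid genes, the pathway lists and the marker lists were chosen with earlier results of these data known. The genes named are the 7 opioid genes, in each pathway list the gene with the highest and the lowest log2 fold change, the 3 genes with the highest Pearson r with each opioid gene on log2 CPM (prior count 2) among those with at least 1 count in every mouse, and Crhr1, Slc17a7 and Gad2. Pcsk1, Pcsk2, Mme, Ogfr, Ogfrl1, Dcn, Col1a1, Sst, Vip, Adarb2, Gad1, Tmem119, C1qa, Cx3cr1, P2ry12, Csf1r and Gja1, and the genes that overlap exons, were named in addition after their values were seen. Promoter and protein sequences were not used here, and 1 gene that this rule names and 1 sequence are not reported here.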

Additional observations from a re-analysis of the deposited data

Results flagged for a closer look

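The log2 CPM of Oprl1 in naïve mouse 2 was 5.62, from 894 counts, with the next lowest naïve mouse at 6.02. That gap was 0.635 of the whole range of the 6 naïve mice, above Dixon's 95% critical value for 6 samples. In all 14 sets of a gene in a group were looked at, of which 1 was marked, and chance gives about 0.7, 1 in 20 groups.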

How the results depend on the processing

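None of the 7 opioid genes was called under any setting, left-out mice included. The number of genes called was 1 in edgeR and stayed at 1 with DESeq2 size factors, TMMwsp, voom and robust dispersions. It was 362 by DESeq2, 137 without a low-count filter, 30 with at least 10 counts in every mouse, 26 with genes detected as a covariate, 48 without the 2 mice with ethanol in every label, 168 by DESeq2 without the 3 conflicting mice, and 0 without those 3 in edgeR or with a covariate for GABAergic markers, fibroblast markers or reads outside exons. The cause was not tested. Leaving out each mouse gave 0 to 193 genes, the most without withdrawn mouse 2, and 0 to 1 pathway gene, as against 1 by DESeq2. With at least 10 counts in every mouse only Pdyn, Penk and Oprl1 were tested, and since all 7 passed the filter no value came from raw CPM.

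Penk was above 0 under every setting. Over all settings and left-out mice, 148 values of the 7 genes kept the reported sign and 30 had the opposite sign. Under voom with sample weights these were 0.10 for Pdyn, −1.73 for Pnoc, −0.64 for Oprm1, 0.021 for Oprd1 and −1.23 for Oprk1. Pdyn was 0.14 without the 3 conflicting mice and 0.22 by DESeq2 without them. With reads outside exons as a covariate Pnoc was −0.12, Oprm1 −0.0026 and Oprk1 −0.63. Without the 2 mice with ethanol in every label Pnoc was −0.99, Oprd1 0.11 and Oprk1 −0.53. Without a filter Oprd1 was 0.0097 and Oprk1 −0.013, Oprd1 was 0.00017 by DESeq2 and 0.43 with genes detected, and Oprl1 was 0.023 with fibroblast markers. Leaving out each mouse gave −0.44 to −0.05 for Pdyn, 0.76 to 1.30 for Penk, −0.63 to 1.53 for Pnoc, 0.85 to 2.34 for Oprm1, −0.38 to 0.34 for Oprd1, −0.83 to 0.31 for Oprk1 and −0.37 to −0.13 for Oprl1. With the longest coding transcript as the length, naïve levels moved to 2.90 for Pnoc, 1.38 for Oprm1, 1.57 for Oprk1 and 21.9 CPM per kb for Oprl1.

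Naïve and withdrawn mice of the same number are different animals, and the correlations of their deviations were −0.20 to 0.18, the highest for number 5, the only 1 that correlated best with its own number. With a replicate block 0 genes were called, Penk was 0.90, Pnoc −0.42 and Oprd1 0.39. Genes of under 10 CPM, as 4 of the 7 are on average, carry the widest intervals here.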

Other observations

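The genes whose log2 CPM followed each of the other opioid genes most closely over the 11 mice are given as a description, since they are the highest of about 12226 correlations and all genes of a mouse share its library. For Oprd1 they were Mical2 (r = 0.95), an actin-oxidizing enzyme, Atp2a2 (r = 0.95), a calcium pump of the endoplasmic reticulum, and Ube2z (r = 0.94), a ubiquitin-conjugating enzyme, with Spearman rho of 0.96, 0.95 and 0.95, and r stayed between 0.93 and 0.96 without naïve mice 1 and 5. For Oprl1 they were 4930567K20Rik (r = 0.92), Inpp1 (r = 0.91), an inositol phosphatase, and Gm4735 (r = 0.90). For Oprm1 they were the gene models Gm10722 (r = 0.96), Gm26870 (r = 0.94) and Gm21738 (r = 0.94).

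For Oprk1 they were 1700019D03Rik (r = 0.93), Ap4e1 (r = 0.91), an adaptor subunit of vesicle sorting, and A830092H15Rik (r = 0.91). For Pdyn they were 3110053B16Rik (r = 0.83), Bfar (r = 0.82) and Cyp7b1 (r = 0.82), a steroid hydroxylase. For Pnoc they were Flt3 (r = 0.92), Rpp25 (r = 0.92) and Lrp4 (r = 0.90), which without withdrawn mice 2 and 3 had r of 0.53, 0.18 and −0.07, so these rest on 2 mice.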
